A study of Homo sapiens with 8 samples.

Results

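The histone genes of HuH7 cells were examined, taken from the count table as every row whose symbol starts with HIST1, HIST2, HIST3, HIST4, H2AF, H3F or H1F. This rule found 81 of the 15767 genes, 66 replication-dependent histone genes (the HIST symbols) and 15 variant histone genes. At least 10 counts in at least 4 libraries were reached by 46 of the 81, 35 replication-dependent and 11 variant. HuH7 is a wildtype human hepatoma cell line. All cells were first kept at 1% oxygen without glucose for 6 h and then returned to normoxia, an in vitro model of ischemia/reperfusion (I/R) called OGD/R. For 6 h of reoxygenation they received either DMSO alone (I/R+DMSO, n = 4) or 20 µM of the ginsenoside Rk2 (I/R+Rk2, n = 4), called the DMSO and the Rk2 libraries below. Cells without OGD/R were not analysed here. No label says whether the 4 libraries of a group came from separate cultures, so p-values measure the spread between libraries, which may be technical.

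Library totals ran from 16374082 to 30310479 counts, and the deepest library was an Rk2 library. The mitochondrially encoded share of the counts was 10.6% to 11.1% with DMSO and 9.02% to 9.62% with Rk2. ALB, AFP and the 8 other hepatocyte or hepatoma markers had FPKM above 0 in every library, while 2 of 5 leukocyte markers (PTPRC and MS4A1), 2 of 3 endothelial markers (VWF and CDH5) and 1 of 4 stellate or fibroblast markers (DCN) were listed at 0 throughout. Of the others CD68, a macrophage and lysosome gene, had 24.1 to 32.6 FPKM and PECAM1 1.07 to 2.1 FPKM, and the summed stellate or fibroblast markers had 0.429 to 1.03 FPKM with DMSO and 0.818 to 1.36 with Rk2. Summed cholangiocyte markers had 65.8 to 75.5 FPKM with DMSO and 76.5 to 80.1 with Rk2, and their part in the results below was not tested.

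Replication-dependent histones are the H1, H2A, H2B, H3 and H4 proteins made in bulk during S phase to package new DNA. Their genes lie in clusters, lack introns as a rule, and give mRNAs that end in a conserved stem-loop, bound by the protein SLBP, in place of a poly(A) tail. Variant histones are encoded by single genes with polyadenylated mRNAs, are made outside S phase as well, and replace the canonical proteins at particular places, such as H3.3 in transcribed chromatin or H2A.X, which is phosphorylated around DNA breaks.

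In the GENCODE v29 annotation of GRCh38, 50 of the replication-dependent genes lie on chromosome 6, 15 on chromosome 1 and 1 on chromosome 12. A search of their annotated 3′ ends for the histone stem-loop (a 6-base stem, a 4-base loop that begins with TTT, and a perfectly paired second arm) found it in 30 of the 66 replication-dependent genes, 45.5%, in 1 of 15 variant genes and in 1 of 15216 other genes. Many replication-dependent transcripts are annotated as coding sequence alone, so a gene without a match may simply have no annotated 3′ end to search. The sequences below are shown because the stem-loop was found mostly in the replication-dependent class. In addition, the only variant gene that carries it, H2AFX, is also one of the called genes. The capitals mark the stem-loop, read 5′ to 3′ on the strand of the gene.
HIST1H2BD (chr6:26158587-26158602, plus strand): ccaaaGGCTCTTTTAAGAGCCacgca
HIST1H2BG (chr6:26216218-26216233, minus strand): tcaaaGGCTCTTTTCAGAGCCactca
HIST1H2AC (chr6:26124669-26124684, plus strand): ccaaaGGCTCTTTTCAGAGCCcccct
HIST2H2AA3 (chr1:149842223-149842238, minus strand): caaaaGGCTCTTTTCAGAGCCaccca
HIST2H4A (chr1:149833032-149833047, plus strand): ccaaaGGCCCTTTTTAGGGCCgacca
H2AFX (chr11:119094898-119094913, minus strand): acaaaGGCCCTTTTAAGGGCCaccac

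The stem came in a pair of forms. GGCTCT opened it in all 22 matches among H2A, H2B and H3 genes of the replication-dependent class, 17 of which had the full sequence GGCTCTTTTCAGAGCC and 5 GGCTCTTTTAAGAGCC. GGCCCT opened it in the 8 H4 genes with a match, as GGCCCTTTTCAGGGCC in 5 and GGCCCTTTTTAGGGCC in 3. H2AFX, an H2A gene, carried the stem of the H4 form, in a 16-base sequence found in no other member.

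The annotated 3′ end differed between the replication-dependent genes that were counted and those that were not. Of the 35 that passed the count filter, 25 had the stem-loop, and in 19 of these an annotated transcript ran more than 100 bases past it. Of the 31 below the filter, 23 had no annotated 3′ untranslated region, 5 had the stem-loop and 2 ran more than 100 bases past it. For the 25 the longest run past the stem-loop had a median of 430 bases. The longest annotated transcript as a whole had a median of 1294 bases in the genes that passed and 411 bases in those below. How RNA was selected for these libraries, by poly(A) or otherwise, is not given in the sources used here. Neither the part of RNA selection nor that of annotated length in which genes were counted was tested.

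Histone mRNA made up little of the libraries, with 0.0325% of all counts on the replication-dependent genes and 0.147% on the variant genes. The 5 replication-dependent genes with the highest mean FPKM, a level per gene length, held 58.5% of the counts of that class. These were HIST1H2BK at 114 ± 2.33 FPKM with DMSO (SD, n = 4), HIST1H1C at 97.2 ± 8.62, HIST1H2BD at 22.3 ± 1.78, HIST1H2AC at 21.4 ± 1.28 and HIST2H2AA3 at 21.7 ± 1.40. The last 3 did not differ beyond their spread. Among the 11 tested variants with DMSO, H2AFZ had 221 ± 40.0 FPKM, H3F3B 214 ± 18.2, H3F3A 112 ± 3.28 and H2AFX 95.4 ± 3.89, and the rest were lower, down to 9.89 ± 1.25 in H2AFY2.

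Of the 46 tested histone genes, 8 were lower with Rk2 (adjusted p-value below 0.05) in edgeR's quasi-likelihood test, where 7.23% of all 12928 tested genes were. Only H1F0 was higher, against 11% of all tested genes. The calls were uneven, with 7 among the 11 variant genes and 2 among the 35 replication-dependent genes. The median log2 fold changes were close, at -0.25 for the tested variants and -0.29 for the tested replication-dependent genes. Averaged over the libraries, counts ran from 420 (H2AFY2) to 6995 (H3F3B) in the tested variants. In the tested replication-dependent genes they ran from 9.6 (HIST1H2BL) to 1428 (HIST1H1C). The part of this difference in depth in the uneven calls was not tested. None of the 46 passed an adjusted p-value of 0.05 with a fold change above 1.5, which 3.04% of all tested genes did. Leaving out Rk2 replicate 1 or Rk2 replicate 2 brought 1 member past both, HIST1H2AI in the former case and HIST1H2BG in the latter. Every library of 1 group lay beyond every library of the other in 15 members that were lower with Rk2, against 12.9% of all tested genes, and in 1 member that was higher, against 15.4%. In these bulk libraries fewer cells in S phase and less histone mRNA per cell cannot be told apart.

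**Figure D1:**
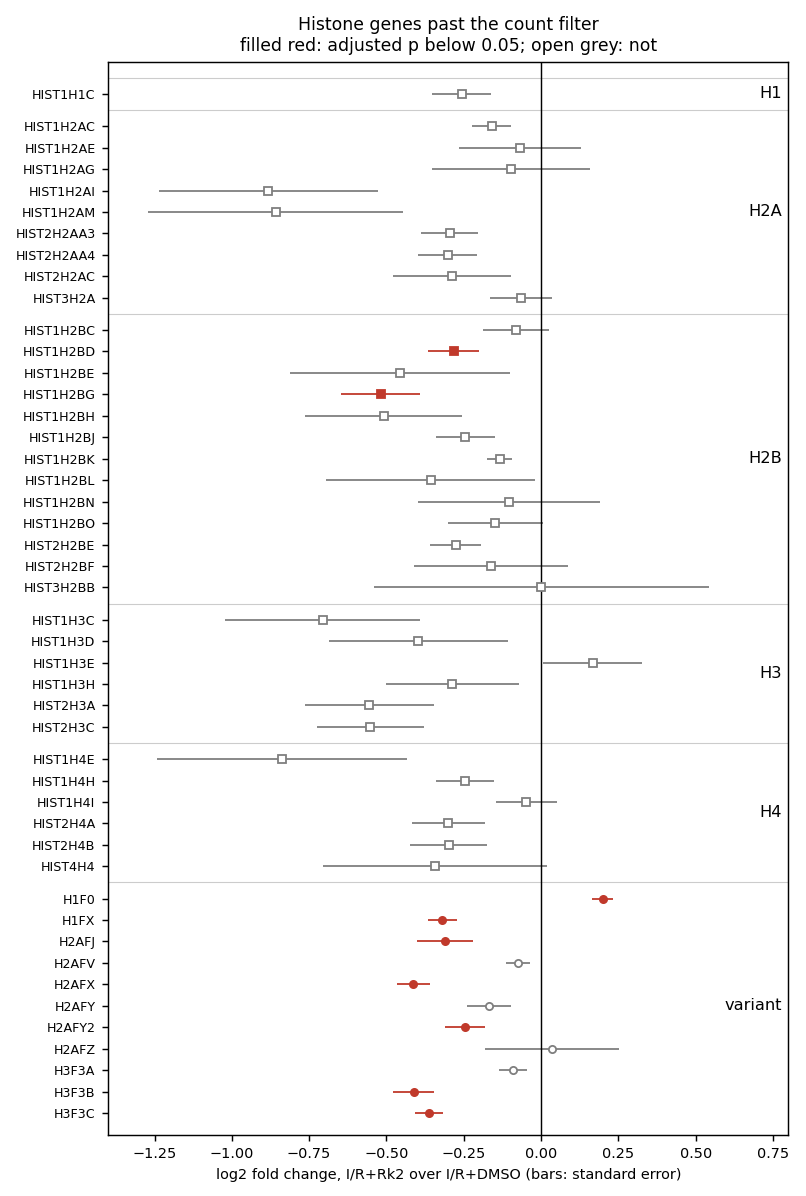
The log2 fold change of I/R+Rk2 over I/R+DMSO (horizontal axis) is plotted for each of the 46 histone genes past the count filter, with bars for the standard error, squares for replication-dependent genes grouped by core class and circles for variant genes. Filled red symbols mark the 9 genes with an adjusted p-value below 0.05, of which H1F0 alone lies right of 0.

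Among the H2A variants, H2AFX encodes H2A.X, the histone whose phosphorylated form marks DNA breaks. Its normalized CPM (counts scaled to library size by TMM) were 190.3, 169.9, 173.3 and 175.8 with DMSO and 137.9, 139.0, 131.9 and 123.9 with Rk2. Every Rk2 library was below every DMSO library, and the log2 fold change was -0.41 (SE 0.0531, edgeR adjusted p = 0.00231). H2AFJ, which encodes the H2A.J variant, went from 28.4, 22.3, 23.4 and 22.4 CPM to 20.8, 19.5, 19.2 and 18.2 CPM. The groups did not overlap, but DMSO replicate 1 stood above the others, and the fall of 0.31 on the log2 scale had an adjusted p-value of 0.0476 in edgeR. Without that library the log2 fold change was -0.22 (edgeR adjusted p = 0.0489). The call also held without DMSO replicate 4, and it was lost without any of the other 6 libraries, with adjusted p up to 0.114 in edgeR.

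H2AFY and H2AFY2 encode the macroH2A proteins, which carry a large globular domain and are known from the inactive X chromosome. H2AFY2 had 24.3, 20.6, 21.5 and 22.1 CPM with DMSO and 18.8, 19.3, 17.9 and 18.7 CPM with Rk2, again without overlap. Its log2 fold change was -0.25 (edgeR adjusted p = 0.0361), a call that held without DMSO replicate 2 and was lost without any of the others. H2AFY, the more abundant of the pair at 114.5 CPM with DMSO, had overlapping groups, with 105.6 to 123.2 CPM against 95.3 to 113.4 CPM and a log2 fold change of -0.17 (edgeR adjusted p = 0.132).

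H2AFZ and H2AFV encode both forms of H2A.Z, a variant found at promoters and regulatory elements. H2AFZ was the most variable of the abundant histone genes, with 362.4, 206.7, 277.7 and 311.3 CPM with DMSO and 335.1, 292.5, 200.9 and 358.5 CPM with Rk2. Low and high libraries occurred in both groups, and the log2 fold change was 0.04 with a standard error of 0.217 (edgeR adjusted p = 0.929). H2AFV varied far less, from 173.2 to 184.2 CPM with DMSO and from 164.3 to 177.9 CPM with Rk2, a log2 fold change of -0.08 (SE 0.0388, edgeR adjusted p = 0.208). With an offset for gene length and GC content it was -0.15 and called (edgeR adjusted p = 0.0358).

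H3F3A and H3F3B encode the identical H3.3 protein from separate genes. H3F3B had 425.4, 382.8, 362.0 and 377.8 CPM with DMSO and 306.0, 307.1, 264.6 and 285.3 CPM with Rk2. The groups were well apart, and the log2 fold change was -0.41 (SE 0.0663, edgeR adjusted p = 0.00566). H3F3A had 133.9, 139.8, 143.5 and 145.2 CPM against 127.9, 127.1, 139.8 and 133.7 CPM, groups that overlapped, with a log2 fold change of -0.09 (edgeR adjusted p = 0.204). The log2 ratio of H3F3B to H3F3A FPKM within a library went from 0.93 ± 0.152 to 0.59 ± 0.139 (SD, n = 4 each; exact permutation test, p = 0.0286 two-sided, the minimum for groups of 4, and 0.0572 after adjustment over 6 such ratios). Added together, the H3.3 genes had 505.4 to 559.3 CPM with DMSO and 404.5 to 434.2 CPM with Rk2. H3F3C, which encodes the testis-enriched variant H3.5, had 42.2, 39.5, 40.0 and 41.2 CPM with DMSO and 32.1, 32.2, 30.8 and 31.6 CPM with Rk2. It fell by 0.36 on the log2 scale (edgeR adjusted p = 0.00224). H3F3C shared 21.8% of its 50-base words with other histone genes, chiefly H3F3B, so reads counted on it could come from H3F3B.

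The linker histones moved in opposite directions. H1F0 encodes H1.0, known for accumulating in cells that have stopped dividing, and had 111.7, 111.3, 110.0 and 109.6 CPM with DMSO. In I/R+Rk2 it had 126.8, 128.2, 130.5 and 122.5 CPM, all above I/R+DMSO, a log2 fold change of 0.20 (SE 0.0346, edgeR adjusted p = 0.00765). H1FX, which encodes the linker histone H1.10, went from 72.7, 69.7, 72.0 and 69.7 CPM to 55.3, 58.7, 59.6 and 54.1 CPM, a log2 fold change of -0.32 (edgeR adjusted p = 0.00401). The replication-dependent linker histone HIST1H1C, which encodes H1.2, had 66.5 to 84.2 CPM against 54.0 to 69.1 CPM, with overlapping groups and a log2 fold change of -0.26 (edgeR adjusted p = 0.0952). Within a library the log2 ratio of H1F0 to H1FX FPKM went from 0.00 ± 0.029 to 0.52 ± 0.036, and that of H1F0 to HIST1H1C from -1.31 ± 0.141 to -0.86 ± 0.120 (SD, n = 4 each). Both had the smallest two-sided exact permutation p, 0.0286, and 0.0572 after adjustment over the 6 ratios. The other 3 ratios, H2AFX to H2AFJ, H2AFV to H2AFZ and H2AFY to H2AFY2, had exact permutation p-values of 0.114 to 0.543. All 6 pairs were chosen with results of these data known.

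**Figure D2:**
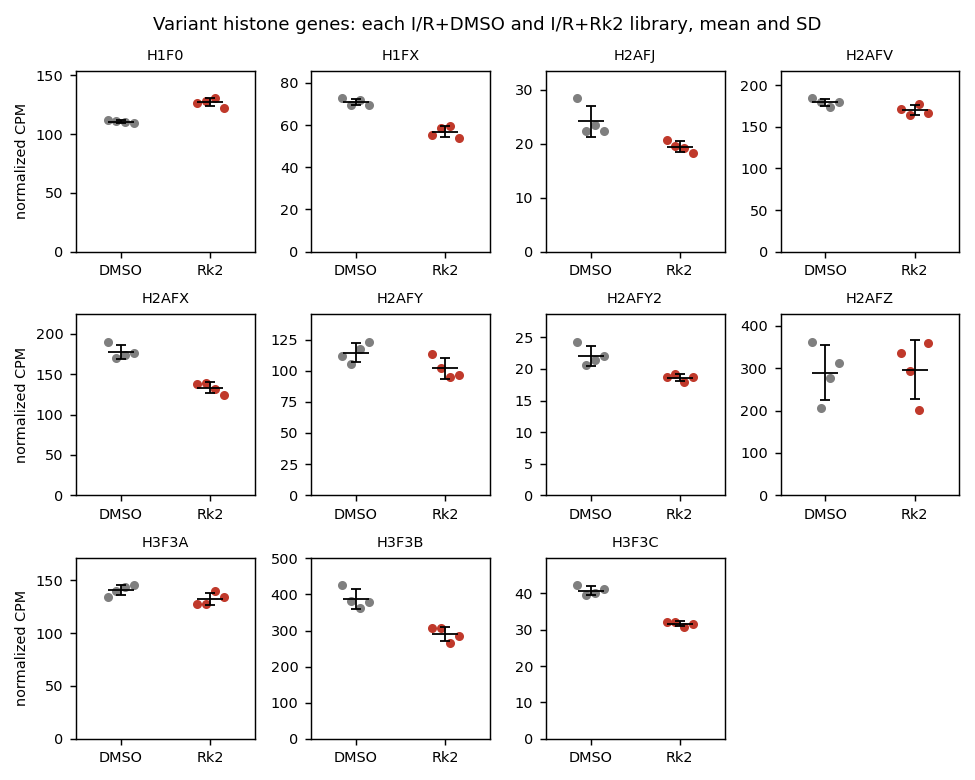
Normalized CPM (vertical axis, from 0) of each of the 11 tested variant histone genes is plotted for every I/R+DMSO library in grey and every I/R+Rk2 library in red, with the mean and SD in black. H2AFX, H3F3B, H3F3C and H1FX sit lower in all 4 I/R+Rk2 libraries, H1F0 sits higher, and H2AFZ spreads from 200.9 to 362.4 CPM without a difference between the groups.

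Reads of some variant genes cannot be assigned with certainty. In GENCODE v29 exons of H1FX overlap those of its antisense gene H1FX-AS1, exons of H3F3B overlap UNK, and exons of H2AFY2 overlap AIFM2, each on the opposite strand. Whether the counting used strand is not given in the sources used here, and without it reads from such a pair cannot be told apart. H2AFX and H1F0 have no such overlap. On GRCh38 the genes that changed most clearly are H2AFX at chr11:119093854-119095467 and H3F3B at chr17:75776434-75785893, both on the minus strand, H1FX at chr3:129314771-129316277 and H3F3C at chr12:31791185-31792241, also on the minus strand, and H1F0 at chr22:37805093-37807436 on the plus strand.

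Replication-dependent genes had lower fitted levels with Rk2 almost throughout, but few passed the test. Of the 35 tested, 33 had a negative log2 fold change, with a median of -0.29, where 50.3% of all tested genes were negative and their median was 0.00. The exceptions were HIST1H3E at 0.17 (edgeR adjusted p = 0.501) and HIST3H2BB at 0.00, the latter with 7 to 16 counts per library. The 2 calls among 35 lay near the 7.23% of all tested genes called lower. The most negative values belonged to scarce genes, named after their values were seen. HIST1H2AI, at -0.88 (edgeR adjusted p = 0.118), had 11 to 15 counts in each DMSO library and 3 to 18 in each Rk2 library, and HIST1H2AM was at -0.86 (edgeR adjusted p = 0.180). Without adjustment 15 of the 35 had an edgeR p-value below 0.05, all of them lower, where 16.4% of all tested genes were. The groups were separate in 9 of the 35, all of them lower and among these 15, where 12.9% of all tested genes were separate and lower. Both counts include near-identical copies that share reads, treated below.

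The called genes both encode H2B. HIST1H2BD had 22.2, 18.3, 21.9 and 20.8 CPM with DMSO and 16.7, 18.6, 15.96 and 17.0 CPM with Rk2. One library of each group overlapped, DMSO replicate 2 being below Rk2 replicate 2, and the log2 fold change was -0.28 (SE 0.0814, edgeR adjusted p = 0.0461). The call held without DMSO replicate 2 and was lost without any of the 7 others. HIST1H2BG was rarer, with 2.65, 2.68, 2.70 and 2.91 CPM with DMSO and 1.93, 2.22, 1.75 and 1.72 CPM with Rk2, from 29 to 62 counts per library. Its groups did not overlap, and it fell by 0.52 on the log2 scale (SE 0.127, edgeR adjusted p = 0.0267), a call that held without DMSO replicate 1 or Rk2 replicate 2 and was lost without any of the 6 others.

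The 4 other highly expressed genes did not pass the test. HIST1H2BK, an H2B gene and the most abundant replication-dependent gene per length, had 52.1, 53.1, 53.5 and 52.0 CPM with DMSO and 48.9, 46.9, 49.0 and 47.1 CPM with Rk2. These groups did not overlap, but the difference was small, at -0.13 on the log2 scale (edgeR adjusted p = 0.0537). HIST1H2AC, an H2A gene, had 39.2 to 45.6 CPM against 35.1 to 39.0 CPM, also without overlap (log2 fold change -0.16, edgeR adjusted p = 0.116). HIST2H2AA3 had 13.3 to 15.8 CPM against 10.7 to 12.8 CPM (log2 fold change -0.30, edgeR adjusted p = 0.0594). HIST1H1C is given above.

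Near-identical copies limit what can be said of single genes. HIST2H2AA3 shares all its 50-base words with HIST2H2AA4, which had nearly the same values (14.4 CPM with DMSO and 11.7 with Rk2). HIST2H3A and HIST2H3C are likewise indistinguishable at 50 bases, and their log2 fold changes of -0.56 and -0.55 are not independent. HIST2H4A and HIST2H4B share over 97% of theirs and had log2 fold changes of -0.30 each. Of the 35 tested replication-dependent genes, 8 shared over 50% of their 50-base words with another histone gene. When copies of 1 core class in 1 cluster were summed before the fit, 3 of 12 sums fell by edgeR's test (adjusted p-value below 0.05). Of all genes tested singly, 7.23% did. These sums were the H2B genes of HIST1 (log2 fold change -0.20, standard error 0.0433, edgeR adjusted p = 0.0173) and the H2A and H2B genes of HIST2. The latter were at -0.30 (edgeR adjusted p = 0.0485) and -0.27 (edgeR adjusted p = 0.0451), both close to the threshold. The H3 genes of HIST2 had the most negative value, -0.56, with an adjusted p-value of 0.0502 in that fit.

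Summed over all 66 replication-dependent genes, the level was 377.9, 330.3, 349.3 and 347.7 CPM with DMSO and 307.4, 307.7, 308.0 and 284.2 CPM with Rk2. The lowest DMSO library was above the highest Rk2 library, and the ratio of the means was -0.22 on the log2 scale. The sums by core class gave -0.26 for H1, -0.21 for H2A, -0.21 for H2B, -0.27 for H3 and -0.20 for H4 on the same scale. Groups were separate for H2A, H2B, H3 and H4, and overlapped for H1. Of all genes tested singly, 12.9% were separate and lower with Rk2. Class H3 was by far the scarcest, with 10.8 ± 0.673 CPM with DMSO and 8.95 ± 0.690 CPM with Rk2 (SD, n = 4 each), beside 117 ± 3.51 and 102 ± 3.61 CPM for H2B. No test was made on these sums.

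**Figure D3:**
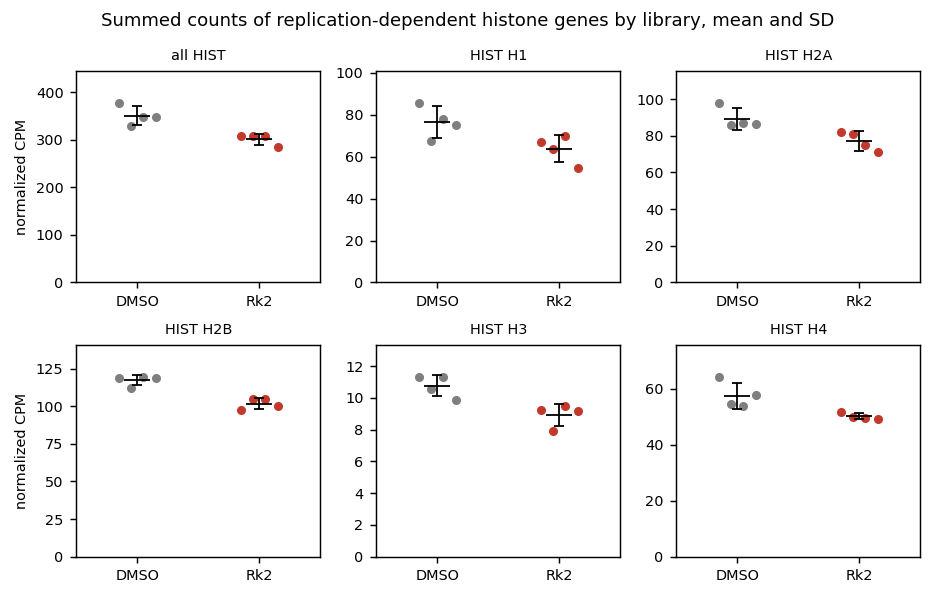
Summed normalized CPM (vertical axis, from 0) of all replication-dependent histone genes and of each core class is plotted for every I/R+DMSO library in grey and every I/R+Rk2 library in red, with the mean and SD in black. The sum over all classes runs from 330.3 to 377.9 CPM in I/R+DMSO and from 284.2 to 308.0 CPM in I/R+Rk2.

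Many H2A and H2B genes are transcribed away from each other across a shared promoter region. Among the 81 members, 11 pairs of divergent neighbours, 1 of them an H3 with an H2B gene, had annotated gene starts under 1000 bases apart, 219 to 357 bases, and both genes were tested in 7. That H3 gene, HIST1H3J, overlaps HIST1H2AM on the same strand, and both are paired with HIST1H2BO. The pairs given here were chosen after their values were seen. In HIST2H2BE and HIST2H2AC, 323 bases apart, the log2 fold changes were alike at -0.28 and -0.29. In others they were not, as in HIST1H2BG at -0.52 beside HIST1H2AE at -0.07, 283 bases away. The counts behind several of these genes were low, and none of the 7 differences was tested.

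The start regions share letters as well as neighbours. RefSeq promoters (GRCh38.p14, 250 bases before to 50 after the start) were matched for 69 of the 81 members, 56 replication-dependent and 13 variant. On either strand TATAAA, the TATA box word, occurred in 37 of the 56 replication-dependent promoters, 66.1%, in 4 of 13 variant promoters and in 12% of all 27305 promoters. CCAAT occurred in 47 of the 56, 83.9%, in 10 of the 13 and in 35.7% of all. ATTTGCAT, the octamer bound by OCT1 at H2B genes, occurred in 19 of the 56, 33.9%, in 1 of the 13 and in 1.8% of all. The E2F words TTTGGCGC and TTTCCCGC were searched as well. Either of them occurred in 0 of the 56, in 0 of the 13 and in 2.31% of all. No motif contains another. The windows of some neighbours overlap, as in HIST2H2BE and HIST2H2AC, and HIST1H2AD and HIST1H3D have the same window. A single site can therefore be counted for both genes of such a pair. The promoters of HIST1H2BD, a called replication-dependent gene, and H2AFX, a called variant, are shown to compare a gene of each class, with TATAAA and CCAAT or their reverse complements in capitals.
HIST1H2BD (chr6:26157871-26158170, plus strand): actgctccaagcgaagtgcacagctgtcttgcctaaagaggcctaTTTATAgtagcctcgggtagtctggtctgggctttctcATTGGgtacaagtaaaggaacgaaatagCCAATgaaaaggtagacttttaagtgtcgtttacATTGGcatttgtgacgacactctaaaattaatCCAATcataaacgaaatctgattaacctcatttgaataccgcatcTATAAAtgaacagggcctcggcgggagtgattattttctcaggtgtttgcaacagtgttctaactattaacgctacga
H2AFX (chr11:119095416-119095715, minus strand): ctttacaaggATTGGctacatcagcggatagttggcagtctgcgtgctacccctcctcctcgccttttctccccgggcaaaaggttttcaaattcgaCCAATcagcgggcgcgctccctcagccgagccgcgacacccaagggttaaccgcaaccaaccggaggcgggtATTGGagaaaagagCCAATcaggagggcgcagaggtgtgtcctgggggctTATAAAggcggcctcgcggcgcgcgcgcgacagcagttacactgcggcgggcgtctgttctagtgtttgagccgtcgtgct
The printed promoters each hold 4 CCAAT words and a TATAAA shortly before the start. Neither holds the octamer, although HIST1H2BD is an H2B gene. Both words occurred together in 3 of the 13 variant promoters (23.1%), those of H2AFX, H2AFZ and H3F3B. They did so in 57.1% of the 56 replication-dependent promoters and in 4.84% of all. H2AFX is thus not typical of the variants in this. A match of letters is a description of the window and not evidence that a factor binds there.

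Genes of low count were many. The 35 members below the filter had at most 15 counts in any library. A lower mean share of the counts with Rk2 occurred in 24 of them, and no difference was detected, the smallest two-sided exact permutation p being 0.0571 where 4 against 4 allow 0.0286. They included the testis histones H1FNT, H2AFB1, H2AFB2 and H2AFB3, and linker histones such as HIST1H1E, named after its values were seen, with 6 to 15 counts per library with DMSO and 3 to 11 with Rk2. A further 6 histone symbols were in the FPKM table alone and listed at 0. One tested gene was low in a single library. HIST1H2BE, named after its values were seen, had 5.11 to 6.83 CPM with DMSO and 4.82, 6.17 and 4.90 CPM in 3 Rk2 libraries, but 1.60 CPM with Rk2 replicate 1.

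Gene length moved with these results. Across all tested genes, which do not count as replicates, log2 fold changes were higher in longer genes, with length derived from counts and FPKM (Spearman's rho = 0.388 over 12898 genes). Of the 45 tested histone genes with a derived length, 31 were among the 3225 shortest tested genes, those up to 1900 bases. These 3225 genes had a median log2 fold change of -0.13, and 74.3% of them were negative. With an offset for gene length in the fit, the median of the replication-dependent genes was -0.13 and that of the variants -0.14, where all tested genes had -0.02, and 28 of the 35 replication-dependent genes had a negative value. With an offset for length and GC content, chosen after seeing the data, the medians were -0.16 and -0.17, where all tested genes had -0.03. In that fit 27 of the 35 replication-dependent genes had a negative value. H2AFX, H3F3B, H3F3C, H1FX and H1F0 kept their direction and an adjusted p-value below 0.05 in edgeR under both offsets, with log2 fold changes under the length and GC offset of -0.29, -0.34, -0.28, -0.19 and 0.22. HIST1H2BD went to -0.13 (edgeR adjusted p = 0.273) with the length offset, and HIST1H2BK to 0.12 (edgeR adjusted p = 0.356). The replication-dependent calls still numbered 2 under each offset, both lower with Rk2. These were HIST1H2BG, which kept its call, and HIST2H2BE, named after its values were seen and not called in the main fit. H2AFJ, at -0.14, was no longer called (edgeR adjusted p = 0.0960).

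**Figure D4:**
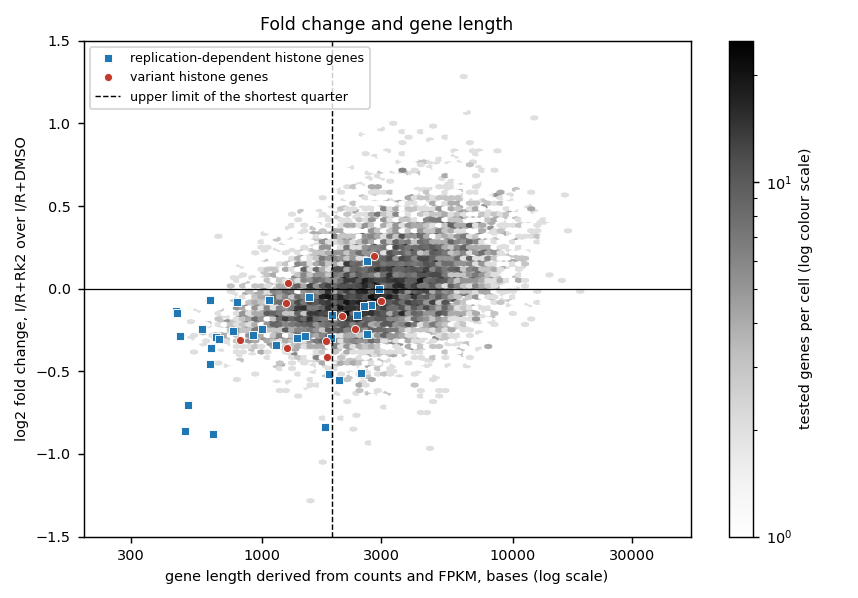
The log2 fold change (vertical axis) of every tested gene with a derived length is plotted against that length in bases (horizontal log axis), as grey cells shaded by the number of genes, with replication-dependent histone genes as blue squares and variants as red circles. The dashed line marks 1900 bases, the upper limit of the 3225 shortest genes, and 31 histone genes lie at or left of it, in the part of the plot where most genes are below 0.

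The genes that make and process histone mRNA were read from a list of 20, all tested, of which 3 were higher and 3 lower with Rk2, beside 11% and 7.23% of all tested genes, shares that also stand as background for the lists below. NPAT, the coactivator that drives replication-dependent histone genes and a substrate of cyclin E and CDK2, had 7.01, 5.41, 7.38 and 7.83 CPM with DMSO and 11.5, 14.9, 11.8 and 10.5 CPM with Rk2. It rose by 0.82 on the log2 scale (SE 0.148, edgeR adjusted p = 0.00880), while CCNE1, which encodes cyclin E1, fell from 24.5 to 31.6 CPM to 19.1 to 21.9 CPM, by 0.45 on the log2 scale (edgeR adjusted p = 0.0120). With the length and GC offset the NPAT value was 0.49 (edgeR adjusted p = 0.0615). CPSF3, the endonuclease that cleaves histone pre-mRNA, fell by 0.18 (edgeR adjusted p = 0.0174). ZCCHC11, a uridylyltransferase tied to the decay of histone mRNA, rose by 0.35 on the log2 scale (edgeR adjusted p = 0.0179). CPSF3 and ZCCHC11 each lost the call in 5 of 22 alternative fits, with log2 fold changes of -0.09 and 0.24 at the weakest. SLBP, which binds the stem-loop shown above, had 138.2 to 147.7 CPM against 123.0 to 141.3 CPM, with a log2 fold change of -0.12 (edgeR adjusted p = 0.114). CASP8AP2, also called FLASH and part of the histone locus body, had 9.71 to 12.9 CPM against 12.7 to 13.8 CPM (log2 fold change 0.29, edgeR adjusted p = 0.0818).

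Among 26 histone chaperones and deposition factors, all tested, 3 were higher and 5 lower with Rk2. ASF1B, which hands newly made H3 and H4 to the replication fork, fell from 65.2 to 68.5 CPM to 53.2 to 57.0 CPM, by 0.29 on the log2 scale (edgeR adjusted p = 0.00407). SSRP1, a subunit of the FACT complex, fell by 0.16 (edgeR adjusted p = 0.00965), and CHAF1B, of the chromatin assembly factor CAF-1, by 0.27 (edgeR adjusted p = 0.0187), a call kept in 3 of 8 fits with a library left out (without DMSO replicate 1 or 4 or Rk2 replicate 1). UBN2, of the HIRA complex that places H3.3, rose by 0.61 on the log2 scale (edgeR adjusted p = 0.00829), and with the length and GC offset it was 0.22 (edgeR adjusted p = 0.126). CENPA, the centromeric histone H3, had 7.38 to 14.01 CPM against 6.77 to 7.46 CPM and was not called (log2 fold change -0.37, edgeR adjusted p = 0.237).

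Of 35 S-phase and DNA replication genes, 13 were lower and 1 higher with Rk2, and the median log2 fold change was -0.15. GINS2, part of the replicative helicase, fell by 0.49 (edgeR adjusted p = 0.00460), and CCNA2, which encodes cyclin A2, by 0.34 (edgeR adjusted p = 0.00215), with 115.2 to 119.1 CPM against 86.6 to 95.6 CPM. MCM5, another helicase subunit, fell by 0.30 (edgeR adjusted p = 0.00609). CDC6, which loads that helicase, rose by 0.31 on the log2 scale (edgeR adjusted p = 0.00135), from 143.1 to 148.4 CPM to 175.4 to 185.3 CPM. The fall of GINS2, CCNA2 and MCM5 was as large or nearly so with the length and GC offset, at -0.52, -0.45 and -0.29. The part of a change in cycling cells in the histone values was not tested.

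Of 11 tested genes in a list of H2A.X kinases and other DNA break response genes, 4 were higher and 0 lower with Rk2 by edgeR. Of all tested genes 11% and 7.23% were. At an unadjusted p-value below 0.05 the numbers were 7 and 1, beside 18.1% and 16.4%. The 4 genes called after adjustment were BRCA1 (log2 fold change 0.43, edgeR adjusted p = 0.00356), the kinase ATM (0.97, adjusted p = 0.0202), the kinase ATR (0.45, adjusted p = 0.0218) and the ubiquitin ligase RNF168 (0.18, adjusted p = 0.0365). BRCA1 was called whichever library was left out, ATM in 5 of 8 such fits (lost without DMSO replicate 3 or Rk2 replicate 3 or 4), ATR in 3 of 8 (without DMSO replicate 1 or 4 or Rk2 replicate 1) and RNF168 in 1 of 8 (without DMSO replicate 4), with edgeR adjusted p up to 0.0984. H2AFX itself fell, as given above. RNF168 was at 0.01 and ATR at 0.16 with the length and GC offset, both uncalled. BRCA1 lost its call in 3 of 22 alternative fits, over which its log2 fold change ran from 0.18 to 0.46. The median derived length of this list was 5847 bases, that of the tested histone genes 1387. These lists were made with earlier results of these data known, and their counts describe the lists only.

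**Figure D5:**
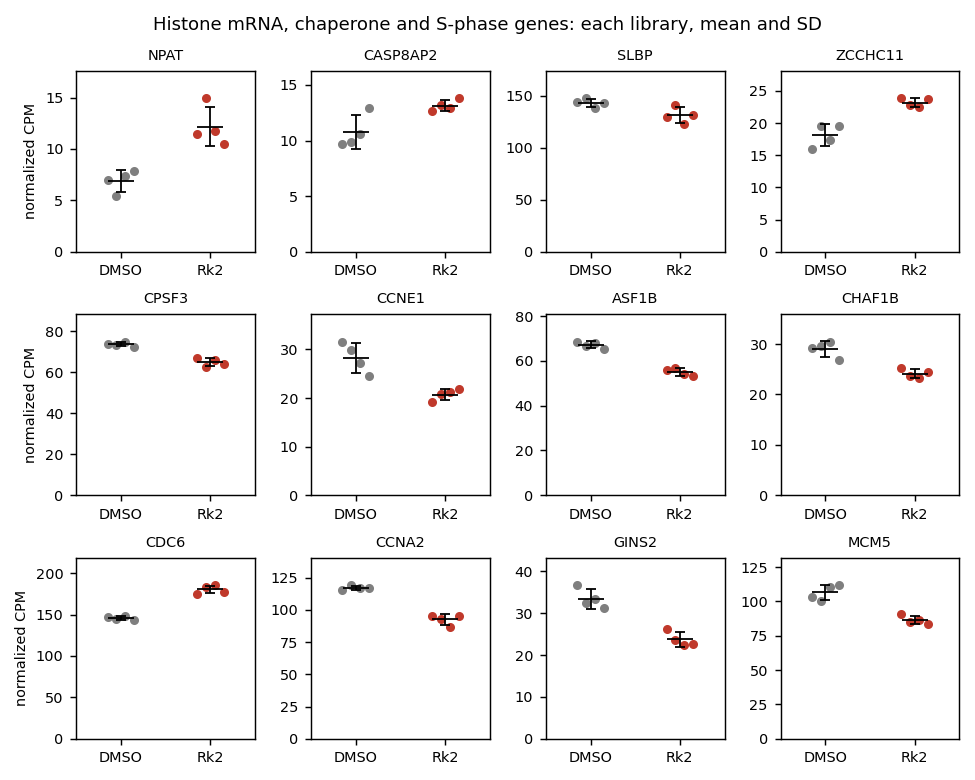
Normalized CPM (vertical axis, from 0) of 12 genes that act on histone mRNA, histone deposition or S phase is plotted for every I/R+DMSO library in grey and every I/R+Rk2 library in red, with the mean and SD in black. NPAT and CDC6 sit higher in all I/R+Rk2 libraries, GINS2, CCNA2, MCM5, ASF1B and CCNE1 sit lower, and SLBP overlaps between the groups.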

How the data were processed

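RNA-seq of 8 HuH7 libraries was analysed, grouped by the treatment in their labels. The authors prepared them with the MGIEasy RNA Library Prep Kit. The submitters' processing notes name FastQC 0.11.5, HISAT2 2.2.1, StringTie 1.3.3 and hg38. The counting tool, its annotation and its use of strand are not given in the sources used here. The authors deposited raw counts per gene, without normalization, and FPKM, which are scaled by both gene length and library size. Symbols turned into dates numbered 22 in the deposited counts and held 0.111% of them.

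Counts were tested with edgeR 4.0.16 (R 4.3.3; robust quasi-likelihood, TMM, condition only) in 12928 genes that reached 10 counts in 4 or more libraries, with Benjamini-Hochberg adjustment over all of them. CPM are TMM-normalized. Gene length was derived from counts and FPKM. Alternatives were DESeq2 1.42.0, limma 3.58.1 on FPKM with a pseudocount of 1 or 0.1 and a floor on mean FPKM of 0.5 or none, voom with sample weights, other normalizations and filters, a replicate block, loess offsets (span 0.5) for length, and for length and GC content, and leaving out each library. Steps were tested on simulated data. Named genes were every tested variant, called replication-dependent genes, the 5 replication-dependent genes with the highest FPKM, from each list the 4 of smallest p, SLBP, NPAT, CASP8AP2 and CENPA, and others are said to be named after their values were seen. Lists of non-polyadenylated and nuclear-retained RNAs had no gene in the count table. Members and lists were chosen with earlier results of these data known.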

Additional observations from a re-analysis of the deposited data

Results flagged for a closer look

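Of 56 groups of 4 libraries examined, 3 had a library far from the others by Dixon's test, and chance flags about 1 in 20. The summed level of all replication-dependent histone genes was 284 CPM in I/R+Rk2 replicate 4, against 307 to 308 in the other 3 (gap over range 0.971). The summed H2A genes had 97.9 CPM in I/R+DMSO replicate 1, against 85.6 to 87 in the others (0.890). The summed H2B genes had 112 CPM in I/R+DMSO replicate 2, against 119 in the others (0.962).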

How the results depend on the processing

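The direction of H2AFX, H3F3B, H3F3C, H1FX and H1F0 and their adjusted p-values below 0.05 held under all 22 alternatives. H2AFJ and H2AFY2 were no longer called under 14 of 22 each, HIST1H2BD under 17 of 22 and HIST1H2BG under 11 of 21. The 2 replication-dependent calls became 4 in DESeq2, 6 with upper-quartile normalization, 1 with library totals only and 1 without the count filter. They became 0 with limma on log2(FPKM + 1) or log2(FPKM + 0.1), and 0 to 2 when each library was left out, with 0 once replicate 3 or 4 of either group was left out, and 1 without replicate 1 of either group or Rk2 replicate 2. The 7 variant calls stayed at 5 to 7, and 5 to 6 with a library left out. With a fold change above 1.5 as well, 0 replication-dependent genes, 0 variants, 393 of 2351 genes and 3 of 32 list genes remained. Over all genes the 2351 calls became 1130 and 1119 with limma on FPKM, 1001 without its filter, and 1291 to 2282 with each library left out, lowest without Rk2 replicates 2 (1461), 3 (1512) and 4 (1291). The 32 list calls became 10, 10 and 7 in those limma fits and 17 to 33 with each library left out, with 17 without Rk2 replicate 4, 20 without DMSO replicate 2 and 21 without Rk2 replicate 2. The summed level lay between -0.25 and -0.18 on the log2 scale under 3 other scalings and with each library left out, and was not computed under the offsets. The cause of these shifts was not tested.

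Deviations of same-numbered libraries correlated at 0.0160, -0.00945, 0.0381 and 0.0845, so the numbers were not taken as pairs, and 1 of the 4 DMSO libraries matched its own number best. The replicate block gave 1814 calls over all genes, 6 variants and 0 replication-dependent genes. With the length offset as well, the block gave 1505, 5 and 0.

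The sign turned, in fits without a call, for H2AFZ (-0.10 without DMSO replicate 2, -0.03 and -0.07 without Rk2 replicates 1 and 4, and up to 0.18 otherwise), H3F3A (0.02 with the length offset, block or not), HIST1H2BK (0.12 with either offset, block or not) and CASP8AP2 (-0.03 with the length and GC offset). HIST1H2BK was called lower in 4 other fits and CASP8AP2 higher in 2. Depth limits the 35 members below the filter and tested genes near it.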
